A study of Homo sapiens with 31 samples.

Results

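The enzymes that build cholesterol and long-chain fatty acids, and the proteins that switch them on, were followed in RNA sequencing of cells labelled PANC-1. The labels also give knockout or wild type for the RNA-binding protein KHSRP. PANC-1 is a line grown from a human pancreatic carcinoma. The set holds 31 genes named in advance by symbol: 5 of the early mevalonate pathway, 3 that carry isoprenoid units to squalene, 10 that close and trim the sterol ring, 6 regulators and carriers, and 7 of fatty acid synthesis. All 31 were found among the 57992 genes of the steady-state tables and the 43682 genes of the actinomycin D tables, and all 31 passed the filter on low counts in both. They were chosen by what they are known to do, not by how they moved in these libraries, although earlier results on these data were known when the set was drawn up.

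Cells make cholesterol from acetyl-CoA. ACAT2 and HMGCS1 start the mevalonate pathway, its later kinases and MVD turn mevalonate into the isoprenoid unit, FDPS and FDFT1 join such units into squalene, and SQLE, LSS and the enzymes after them shape squalene into sterols. The pathway is governed by feedback: the transcription factor SREBP2, made from SREBF2, sits in the endoplasmic reticulum with its escort SCAP, is held there by the INSIG proteins when sterols are plentiful, and otherwise travels to the Golgi, where it is cut free and moves to the nucleus to switch on the enzymes of the pathway. SREBP1, made from SREBF1, is best known for fatty acid synthesis, in which ACLY supplies acetyl-CoA, ACACA makes malonyl-CoA, FASN builds palmitate, and SCD, ELOVL6, FADS1 and FADS2 desaturate or lengthen fatty acids. KHSRP is known for promoting the decay of AU-rich transcripts.

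The steady-state set held 3 PANC-1 libraries labelled KHSRP knockout (KO) and 3 labelled NC with a wild-type genotype, none of them with a treatment in the labels. The actinomycin D set held 10 libraries labelled KHSRP knockout and 10 labelled NC with a wild-type genotype, 2 of each at labelled times of 0, 2, 4, 6 and 8 h of actinomycin D, which blocks transcription. The labels do not say how the knockout was made, whether it is 1 clone, or whether replicates are separate cultures. The p-values therefore measure only how far these libraries differ among themselves, a spread that may be technical. Crosslinking libraries (3 miCLIP and 2 PAR-CLIP) were not analysed here.

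Each steady-state library held 33706181 to 43278138 counts in all, each actinomycin D library 19177934 to 25768060, and single members drew from 37 counts (STARD4, a library of the actinomycin D set) to 105452 counts (SCD, a steady-state library). Levels are CPM, read counts scaled to the size of the library after TMM scaling, unless another unit is named. KHSRP stood at 9.49 to 10.6 CPM in steady-state KO libraries and at 64.4 to 65.7 CPM in NC libraries. In the actinomycin D set it stood at 134 to 156 CPM under the KO label and at 375 to 459.5 CPM under the NC label. There the 2 labels differed in more than KHSRP. CDKN2A, a tumour suppressor gene known to be deleted in PANC-1, had 0 counts in the 10 libraries labelled KO and 125 to 247 CPM in those labelled NC, while in the steady-state set it was at 0.138 to 0.172 CPM in KO and at 0 in NC. Of the ductal epithelial markers, KRT19 was at 372 to 415 CPM under the KO label and at most 0.672 CPM under the NC label. KRT7 was at 8.61 to 19.1 CPM under KO and 541 to 961 CPM under NC. In the steady-state NC libraries KRT19 was at 301 to 345 CPM and KRT7 at 3.43 to 4.41 CPM. In CDKN2A, KRT19 and KRT7 the NC-labelled actinomycin D libraries thus differed from the steady-state NC libraries, which share the PANC-1 label. Whether the NC-labelled actinomycin D libraries come from PANC-1 was not tested. Summed levels of 6 ductal genes were 3814 to 6459.6 CPM under KO and 2924 to 4563 CPM under NC, with 6 of them averaging over 1 CPM under KO and 3 under NC. They were 37.5 to 70.2 CPM under KO and 29.9 to 38.4 CPM under NC for 8 fibroblast genes, 113 to 249 CPM under KO and 10.4 to 15.2 CPM under NC for 5 immune genes, and 7.37 to 11.3 CPM under KO and 2.20 to 4.58 CPM under NC for 4 endothelial genes. No acinar, endocrine or hepatocyte marker averaged over 1 CPM. A difference between the labels of the actinomycin D set therefore cannot be told apart from whatever else separates those cells, and in bulk libraries fewer cells and less RNA per cell cannot be told apart either.

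Promoter sequence is shown first, because members that moved together are usually described as sharing control regions. RefSeq windows of GRCh38.p14, running from 250 bases before to 50 bases after an annotated start, were available for 27 of the 31 members. ACAT2, FDFT1, SQLE and FASN are named without one. Stretches of 200 bases that end at the base before the start are given for SREBF2, the one member with the sterol regulatory element as spelled here, for MVD, LSS and INSIG1, which were higher in steady-state KO cells, and for STARD4, which was lower there. Capitals mark matches, on either strand, to the sterol regulatory element TCACNCCAC, the inverted CCAAT box ATTGG and the GC box GGGCGG; the E box CATGTG was searched too and has no match in these stretches. The letters of the inverted CCAAT box and the GC box can overlap at their ends, but no 2 matches to different motifs overlapped in the members' windows.
SREBF2: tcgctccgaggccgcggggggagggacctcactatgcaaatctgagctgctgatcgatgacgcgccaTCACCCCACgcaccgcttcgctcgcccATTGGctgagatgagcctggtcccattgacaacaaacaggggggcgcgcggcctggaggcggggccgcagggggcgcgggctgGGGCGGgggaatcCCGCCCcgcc
MVD: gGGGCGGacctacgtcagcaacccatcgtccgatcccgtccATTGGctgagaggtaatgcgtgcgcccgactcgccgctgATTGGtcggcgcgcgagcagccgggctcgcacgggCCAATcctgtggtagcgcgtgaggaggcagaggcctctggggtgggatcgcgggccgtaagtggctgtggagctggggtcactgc
LSS: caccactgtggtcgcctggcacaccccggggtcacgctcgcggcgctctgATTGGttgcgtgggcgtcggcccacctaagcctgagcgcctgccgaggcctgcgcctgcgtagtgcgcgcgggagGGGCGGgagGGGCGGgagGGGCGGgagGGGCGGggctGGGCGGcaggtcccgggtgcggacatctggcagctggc
INSIG1: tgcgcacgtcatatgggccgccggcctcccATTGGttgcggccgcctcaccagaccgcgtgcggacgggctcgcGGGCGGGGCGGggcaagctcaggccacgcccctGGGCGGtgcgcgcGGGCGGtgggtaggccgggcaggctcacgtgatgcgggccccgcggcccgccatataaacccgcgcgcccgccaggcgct
STARD4: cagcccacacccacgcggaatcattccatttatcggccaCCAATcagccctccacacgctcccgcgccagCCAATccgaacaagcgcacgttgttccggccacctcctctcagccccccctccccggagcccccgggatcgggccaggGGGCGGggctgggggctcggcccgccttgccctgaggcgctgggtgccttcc

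The SREBF2 stretch lies at chr22:41832905-41833104 on the plus strand. The MVD stretch lies at chr16:88663092-88663291 on the minus strand. The LSS stretch lies at chr21:46228775-46228974 on the minus strand. The INSIG1 stretch lies at chr7:155297678-155297877 on the plus strand. The STARD4 stretch lies at chr5:111512536-111512735 on the minus strand. Within its stretch SREBF2 held 1 sterol regulatory element, 1 inverted CCAAT box and 2 GC boxes, the element beginning 133 bases before the start and the CCAAT box 106 bases before it. MVD held 3 inverted CCAAT boxes and 1 GC box, STARD4 held 2 inverted CCAAT boxes and 1 GC box, and LSS and INSIG1 held 1 inverted CCAAT box each beside 5 and 4 GC boxes.

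Over whole windows, the inverted CCAAT box, read by NF-Y, was present in 20 of 27 members (74.1%), against 39.7% of all 27305 genes with a window and 43.9% of the 8650 such genes that averaged at least 1 TPM in the steady-state libraries. The GC box, read by SP1 and related factors, was present in 26 of 27 members (96.3%), against 48.3% of all genes and 79.4% of those above 1 TPM. NSDHL was the member without one. The strict sterol regulatory element was present in 1 of 27 members (3.70%), against 1.39% of all genes and 1.43% of those above 1 TPM, and the E box in 2 of 27 (7.41%, ACACA and TM7SF2), against 13.4% and 8.95%. A match is a description of the letters in the window and says nothing of binding. The 20 members with a CCAAT box include SCD and STARD4, which were lower in steady-state KO cells, and ACACA, ACLY, FADS2, NSDHL, SC5D and TM7SF2, which did not pass.

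**Figure D1:**
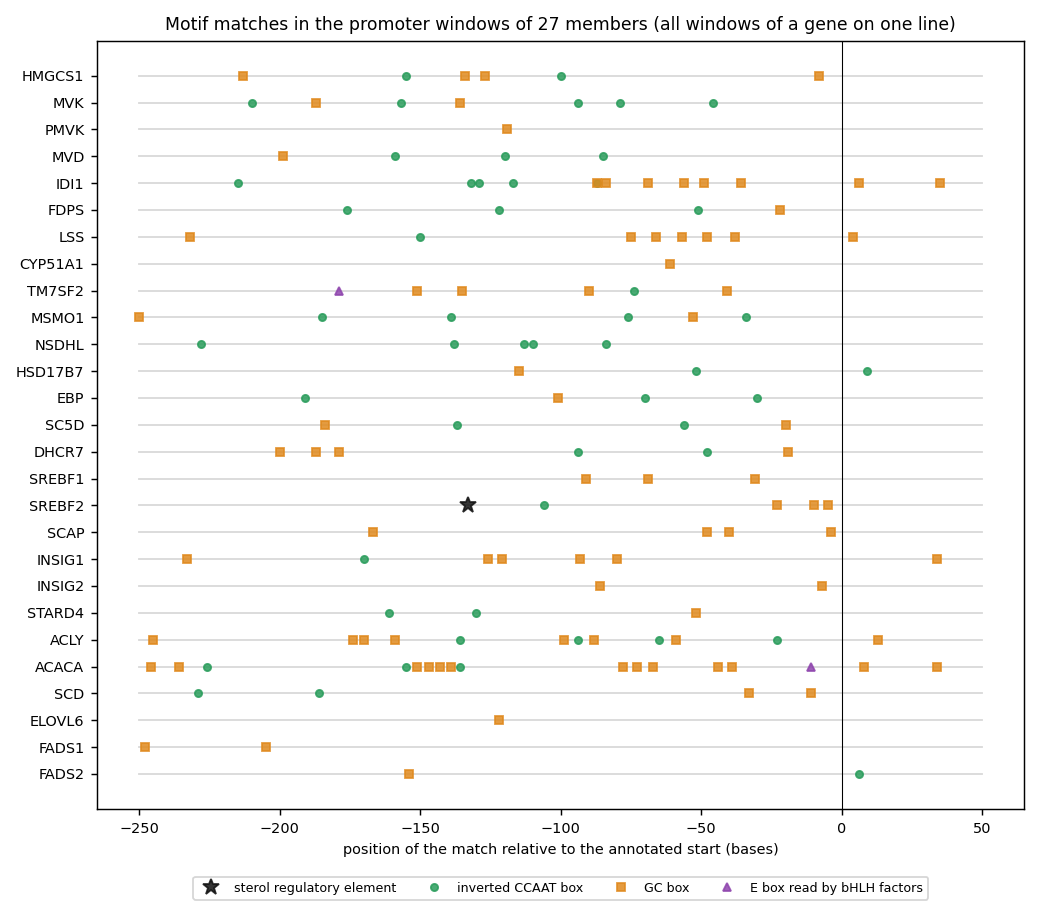
Matches to 4 motifs (symbols) along the promoter windows of 27 members, one line per gene, with the position of the match relative to the annotated start in bases on the horizontal axis. Inverted CCAAT boxes appear in 20 members and GC boxes in 26, and the single sterol regulatory element is that of SREBF2.

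The steady-state comparison asked which members changed in cells labelled KHSRP knockout. Of the 18 genes of cholesterol synthesis enzymes in the set, 15 passed as higher in transcript level in KO and none passed as lower. The fatty acid synthesis genes did not move as a block. FASN and FADS1 were higher, SCD was lower by CPM and the other 4 were not past the threshold. Among the regulators SREBF2, SCAP and INSIG1 were higher, while INSIG2 and, by CPM, the sterol carrier gene STARD4 were lower. In edgeR's quasi-likelihood test with Benjamini-Hochberg adjustment over 17240 genes, 20 of 31 members were higher in KO at an adjusted p under 0.05, where 24.4% of all genes were, and 3 of 31 were lower, where 26.3% of all genes were. The median log2 change was 0.54 over the members and 0.02 over all genes tested. Libraries of KO and NC did not overlap for 24 of 31 members, 20 with KO above (30.4% of all genes) and 4 with KO below (29.6%).

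Summed over the 18 sterol enzymes, the deposited TPM, a transcript level corrected for gene length, came to 528.3, 388.9 and 441.6 in the KO libraries, against 224.1, 244.6 and 231.1 in the NC libraries. The KO libraries were all above the NC libraries, and the mean was 1.94 times that of NC. TPM carries no TMM scaling, and for every member KO stood higher relative to NC by TPM than by CPM. By CPM only MVD (2.26 times NC) and LSS (2.03 times) of the 18 enzymes were above 1.94 times. Over the 7 fatty acid genes the sums were 293.2, 245.5 and 273.1 TPM in KO and 230.6, 249.7 and 242.3 TPM in NC, and these overlapped. SCD, the stearoyl-CoA desaturase, held the largest share, at 157 ± 12.4 TPM in KO and 162 ± 6.94 TPM in NC (SD, n = 3 each). In NC cells the order by TPM went on with EBP at 45.8 ± 2.78 and FDFT1 at 31.8 ± 2.73, which did not overlap, then FASN at 26.4 ± 1.41 and INSIG1 at 24.7 ± 2.48, which did. At the low end stood STARD4 (1.62 ± 0.127 TPM), INSIG2 (1.46 ± 0.195 TPM) and PMVK (1.30 ± 0.0458 TPM), of which INSIG2 overlapped both its neighbours.

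**Figure D2:**
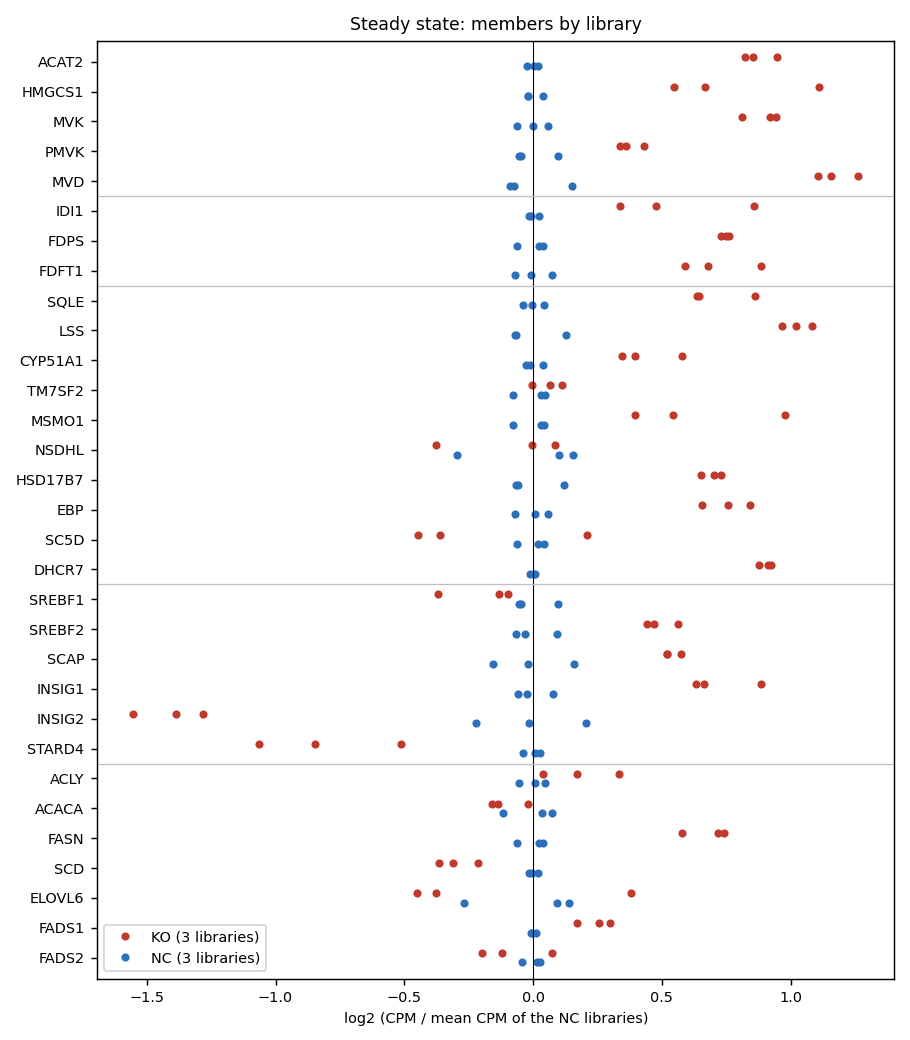
Level of each member in each steady-state library on a log2 scale relative to the mean of the NC libraries (red, 3 KO libraries, upper row of each gene; blue, 3 NC libraries, lower row). KO points lie to the right of NC points for 20 members, and to the left for SREBF1, INSIG2, STARD4 and SCD.

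All 5 early mevalonate genes were higher in KO, and their median log2 change was 0.88. MVD, the decarboxylase that makes isopentenyl diphosphate, changed most, with 100.4, 90.1 and 93.4 CPM in the KO libraries, against 39.8, 46.4 and 39.3 CPM in the NC libraries. Every KO library stood above every NC library (log2 change 1.18, SE 0.09, adjusted p = 2.65e-05). MVK, mevalonate kinase, had 41.9, 38.9 and 42.6 CPM in the KO libraries, against 21.3, 23.1 and 22.2 CPM in the NC libraries, and ACAT2, which joins 2 acetyl-CoA molecules in the cytosol, had 85.1, 78.1 and 79.9 CPM in the KO libraries, against 44.7, 44.3 and 43.4 CPM in the NC libraries. Both sets of KO values lay clear of the NC values, with log2 changes of 0.89 and 0.88. ACAT2 overlaps TCP1 on the other strand and no source used here says whether counting used strand, so its reads may be shared. HMGCS1, the HMG-CoA synthase, had 134, 90.5 and 98.4 CPM in the KO libraries, against 61.1, 63.6 and 61.2 CPM in the NC libraries. KO replicate 1 was the highest, and the groups did not overlap (log2 change 0.80, SE 0.13, adjusted p = 0.000952). PMVK, the next kinase, changed least, with 5.48, 5.22 and 5.14 CPM in the KO libraries, against 4.35, 3.94 and 3.92 CPM in the NC libraries. The groups did not overlap (log2 change 0.38, SE 0.11, adjusted p = 0.0201), but the call was lost without KO replicate 2, NC replicate 2 or NC replicate 3 (adjusted p = 0.0525 to 0.0714).

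The 3 genes from isopentenyl diphosphate to squalene were also higher in KO, by a median of 0.72 on the log2 scale. FDPS, farnesyl diphosphate synthase, had 52.1, 51.5 and 52.6 CPM in the KO libraries, against 31.5, 29.7 and 31.8 CPM in the NC libraries. The KO values were almost alike and all above NC (log2 change 0.75, SE 0.07, adjusted p = 6.74e-05); FDPS has pseudogene copies with which reads could be shared, so its level is uncertain. FDFT1, squalene synthase, had 300.4, 245 and 260.2 CPM in the KO libraries, against 155, 171 and 162 CPM in the NC libraries, with KO replicate 1 the highest and no overlap (log2 change 0.72, SE 0.09). IDI1, the isomerase, changed least of the 3, with 133, 92.9 and 103 CPM in the KO libraries, against 72.8, 73.2 and 74.8 CPM in the NC libraries. KO replicate 1 again stood above the other KO libraries, and the groups did not overlap (log2 change 0.57, SE 0.12, adjusted p = 0.00367).

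Of the 10 genes from squalene onwards, 7 were higher in KO and 3 did not pass. LSS, which folds the squalene epoxide into lanosterol, changed most, with 183, 169 and 176 CPM in the KO libraries, against 82.5, 94.8 and 82.8 CPM in the NC libraries. The KO libraries held about 2.03 times the NC level with no overlap (log2 change 1.02, SE 0.08, adjusted p = 3.13e-05). DHCR7, the last reductase before cholesterol, had 196, 192 and 198 CPM in the KO libraries, against 105, 105 and 104 CPM in the NC libraries, EBP, the sterol isomerase, had 126, 135 and 143 CPM in the KO libraries, against 80.4, 83.2 and 76.1 CPM in the NC libraries, and CYP51A1, the lanosterol demethylase, had 142, 125 and 120.4 CPM in the KO libraries, against 97.4, 92.97 and 94.1 CPM in the NC libraries. In all 3 every KO library was above every NC library, with log2 changes of 0.90, 0.75 and 0.44. MSMO1, which oxidises the C4 methyl groups, had 242, 162 and 179 CPM in the KO libraries, against 116, 126 and 126 CPM in the NC libraries, with KO replicate 1 well above the others. SQLE, the epoxidase and a controlled step, had 154, 132 and 132 CPM in the KO libraries, against 87.4, 82.4 and 84.5 CPM in the NC libraries. HSD17B7, a sterol ketone reductase with pseudogene copies that may share its reads, had 26.6, 26.1 and 25.3 CPM in the KO libraries, against 15.4, 17.5 and 15.3 CPM in the NC libraries. Both lay above NC in every KO library, at log2 changes of 0.72 and 0.69. TM7SF2, a sterol reductase whose step LBR can also carry out, changed least, with 43.6, 45.7 and 47.3 CPM in the KO libraries, against 45.1, 44.6 and 41.4 CPM in the NC libraries. KO and NC overlapped (log2 change 0.06, SE 0.08, adjusted p = 0.551). NSDHL, which acts with MSMO1 in removing the C4 methyl groups, had 10.99, 11.7 and 8.50 CPM in the KO libraries, against 11.8, 8.99 and 12.3 CPM in the NC libraries, and the groups overlapped. NSDHL and SC5D were not past the threshold, at log2 changes of -0.09 and -0.17, and SC5D had 62.8, 39.8 and 42.3 CPM in the KO libraries, against 55.9, 52.01 and 54.98 CPM in the NC libraries. Its KO replicate 1 was above NC and the other KO libraries below, and without that library SC5D fell by 0.39 (adjusted p = 0.000435).

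The regulators did not move together. SREBF2 had 200.2, 204 and 217 CPM in the KO libraries, against 144, 157 and 141 CPM in the NC libraries, and SCAP, the escort of both SREBPs, had 113, 113 and 118 CPM in the KO libraries, against 77.9, 88.3 and 71.1 CPM in the NC libraries. Neither overlapped between groups, with log2 changes of 0.49 (SE 0.08) and 0.54 (SE 0.09). INSIG1, itself a well-known SREBP target, had 293, 246 and 251 CPM in the KO libraries, against 152, 167 and 156 CPM in the NC libraries, a log2 change of 0.73 with no overlap. INSIG2, its paralog, went the other way and by CPM was the member that changed most of all. It had 4.36, 3.61 and 4.06 CPM in the KO libraries, against 10.5, 9.09 and 12.2 CPM in the NC libraries. Each KO library was below each NC library (log2 change -1.40, SE 0.14, adjusted p = 6.58e-05). By TPM INSIG2 was also lower without overlap, at 0.893 ± 0.116 TPM in KO and 1.46 ± 0.195 TPM in NC (SD). MVD changed more than INSIG2 by TPM, at 28.8 ± 5.52 TPM in KO and 10.7 ± 1.48 TPM in NC. STARD4, which carries sterols between membranes, had 11.1, 7.54 and 8.78 CPM in the KO libraries, against 15.4, 15.9 and 16.1 CPM in the NC libraries. By CPM it was lower in each KO library (log2 change -0.79, SE 0.13, adjusted p = 0.00091), but by TPM the groups overlapped, at 2.02, 1.15 and 1.38 TPM in KO against 1.48, 1.73 and 1.64 TPM in NC, with KO replicate 1 above every NC library. SREBF1 had 87.9, 104 and 106 CPM in the KO libraries, against 109.5, 121 and 110.0 CPM in the NC libraries, which did not overlap but did not pass the test (log2 change -0.19, SE 0.09, adjusted p = 0.105). By TPM the ratio of INSIG1 to INSIG2 was 90.8, 46.5 and 55.4 in the KO libraries, against 17.0, 19.6 and 14.6 in the NC libraries. The ratio of SREBF1 to SREBF2 was 1.02, 1.23 and 1.16 in KO, against 2.00, 1.81 and 2.13 in NC. Neither ratio overlapped between groups.

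Among the fatty acid genes FASN changed most, with 625, 636 and 567 CPM in the KO libraries, against 364, 390.3 and 386 CPM in the NC libraries, and KO lay above NC throughout (log2 change 0.68, SE 0.07, adjusted p = 8.27e-05). FADS1, the delta-5 desaturase, had 229, 209.7 and 222 CPM in the KO libraries, against 186, 185 and 188 CPM in the NC libraries. KO was above NC in every library, by a log2 change of 0.24 (SE 0.07, adjusted p = 0.0153), and the call was lost without KO replicate 3, NC replicate 1 or NC replicate 3 (adjusted p = 0.0506 to 0.0662). SCD was lower, with 1925, 1999 and 2138 CPM in the KO libraries, against 2452, 2516 and 2477 CPM in the NC libraries. The groups did not overlap (log2 change -0.30, SE 0.06, adjusted p = 0.00289), yet with scaling adjusted for gene length the change turned to 0.14 and did not pass (adjusted p = 0.194), and by TPM KO and NC overlapped. FADS2, the delta-6 desaturase, changed least, with 89.5, 78.3 and 74.2 CPM in the KO libraries, against 86.7, 85.98 and 82.6 CPM in the NC libraries, and overlapped (log2 change -0.08, SE 0.09, adjusted p = 0.489). ACLY had 122, 149.7 and 134 CPM in the KO libraries, against 119, 114 and 123 CPM in the NC libraries, and ACACA had 95.2, 86.4 and 87.8 CPM in the KO libraries, against 102, 88.9 and 98.9 CPM in the NC libraries. ELOVL6 varied most among KO libraries, with 41.001, 23.04 and 24.2 CPM in the KO libraries, against 33.6, 26.1 and 34.7 CPM in the NC libraries. ACLY, ACACA and ELOVL6 were at log2 changes of 0.19, -0.10 and -0.10, overlapped and did not pass. Without KO replicate 1, ACLY passed as higher (0.27, adjusted p = 0.00514) and ELOVL6 as lower (-0.40, adjusted p = 0.0103), and with the length-adjusted scaling ACLY (0.52, adjusted p = 0.00136) and ACACA (0.27, adjusted p = 0.0132) passed as higher.

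KO replicate 1 was the highest of the 3 KO libraries for 19 of 31 members and KO replicate 2 the lowest for 19. The coefficient of variation of a member was 1.01% to 34.1% over the KO libraries, with a median of 6.44%, and 0.758% to 16.2% over the NC libraries, with a median of 4.44%. Gene length moved with the calls over all genes tested: the median length was 1963 bases for genes higher in KO, 1870 bases for those not past the threshold and 3050 bases for those lower. The medians for the members were 2225, 2223 and 3092 bases. With length-adjusted scaling 22 members were higher and 2 lower: ACLY and ACACA were added to the higher ones, and SCD left the lower ones. The calls and the median over all genes tested also moved upwards with that scaling. Of 17240 genes, 5244 were higher and 3778 lower, against 4198 and 4528 without it, and the median log2 change went from 0.02 to 0.10.

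Other genes of sterol and lipid handling were read beside the members. Of 11 other genes of sterol sensing and SREBP handling, 1 was higher and 6 were lower in KO, with a median of -0.34. Those that changed most were ERLIN2, an endoplasmic reticulum protein tied to the turnover of sterol-regulated proteins (8.33 ± 0.42 CPM in KO, 21.4 ± 0.81 CPM in NC, log2 change -1.36), MBTPS2, the site-2 protease that frees SREBP in the Golgi (24.1 ± 4.2 against 54.7 ± 1.4 CPM, -1.19), and OSBP, an oxysterol-binding protein (19.7 ± 3.8 against 35.3 ± 3.5 CPM, -0.84). Of 13 other known SREBP targets of lipid supply, 6 were higher and 5 lower, with a median of 0.00, and PANK3 (-1.60), GPAM (-1.36) and ACSL3 (-1.26) changed most. Of 10 genes of the isoprenoid branches 3 were higher and 3 lower, with NUS1 at -0.81 and RABGGTA at 0.71. Of 8 LXR targets and sterol efflux genes 1 was higher and 3 lower, led by ABCA1, the cholesterol exporter (25.3 ± 5.4 CPM in KO, 60.02 ± 5.1 CPM in NC, -1.25). Of 12 genes of fatty acid oxidation 4 were higher and 2 lower, among them CPT2 (0.61) and CPT1A (0.49), which bring fatty acids into mitochondria, and ACADM (-0.55). Against the 24.4% and 26.3% of all genes called higher and lower, these counts are descriptions, and no test between the lists and the members was run.

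At the labelled start of the actinomycin D series most of the same genes lay the other way. Of the 31 members 22 were lower and 4 higher under the KO label at 0 h, in the edgeR test over all 20 libraries and 17715 genes, where 31.6% of all genes were lower and 35.5% higher. The median log2 change was -0.80 over the members and 0.06 over all genes. With 2 libraries per label, KO lay below NC for 23 members (39.1% of all genes) and above it for 4 (42.9%). TM7SF2, HSD17B7, ELOVL6 and INSIG2 were the higher ones. Averaged over the 5 labelled times, 25 were lower and 4 higher, where 41.6% of all genes were lower and 41.6% higher, and the 10 libraries of the labels did not overlap for 15 members with KO below (18.7% of all genes) and 2 with KO above (19.4%).

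**Figure D3:**
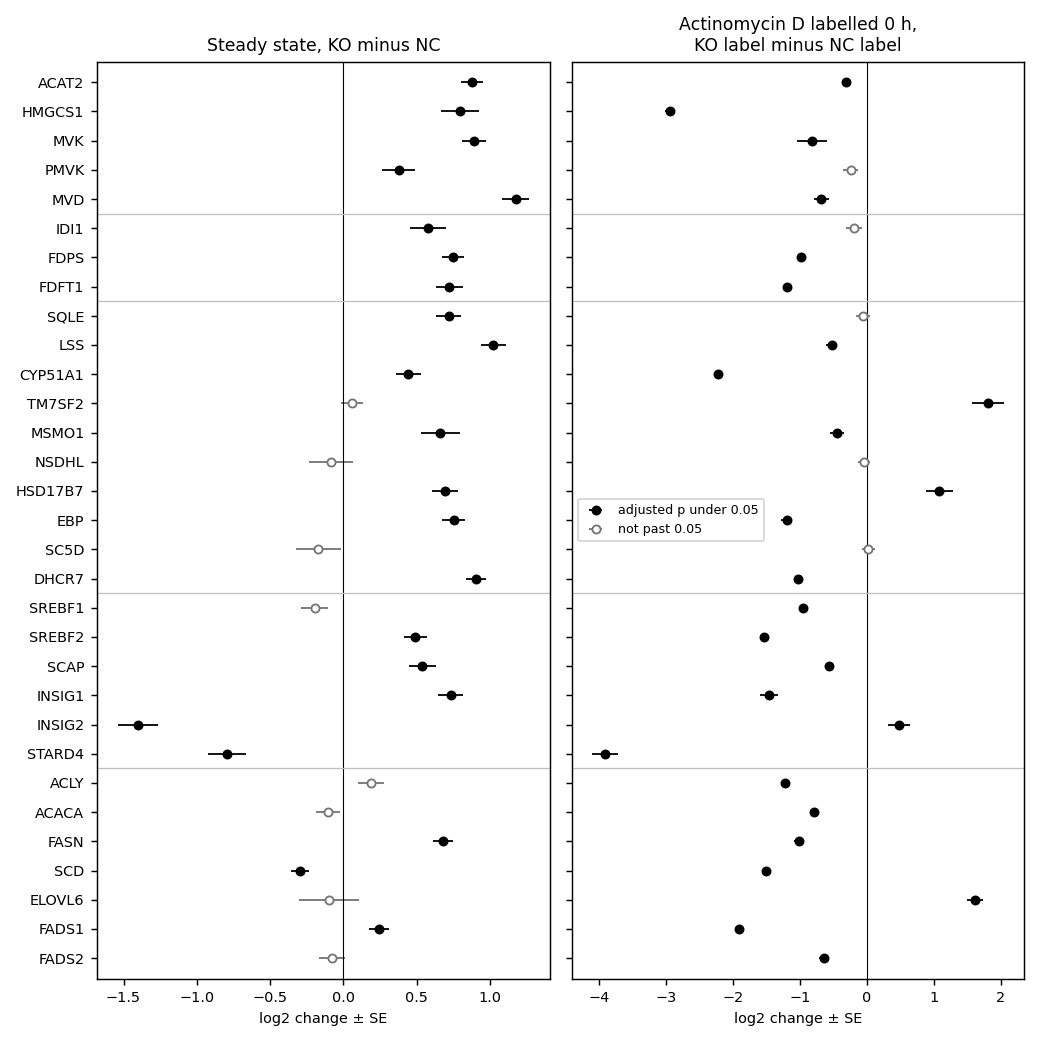
Log2 change of each member (points, with SE as bars) in the steady state (left, KO minus NC) and at labelled 0 h of the actinomycin D set (right, KO label minus NC label), in which filled points passed an adjusted p of 0.05. In the left panel 20 members are higher and 3 lower; in the right panel 4 are higher and 22 lower.

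The early mevalonate genes were lower under the KO label in 4 of 5 cases. HMGCS1 changed most, with 27.002 and 23.5 CPM under KO, against 193 and 198 CPM under NC. It was about 0.129 of the NC level, with no overlap (log2 change -2.95, SE 0.07, adjusted p = 1.09e-31). MVK had 4.77 and 4.40 CPM under KO, against 9.55 and 6.67 CPM under NC, MVD had 26.8 and 25.99 CPM under KO, against 45.2 and 39.5 CPM under NC and ACAT2 had 92.6 and 87.3 CPM under KO, against 111 and 113 CPM under NC. All 3 lay below NC, at log2 changes of -0.82, -0.68 and -0.31; the call of MVK was lost without NC replicate 1 at 0 h (-0.54, adjusted p = 0.0759). PMVK changed least, with 34.1 and 33.8 CPM under KO, against 43.1 and 37.3 CPM under NC, and did not pass (log2 change -0.25, SE 0.11, adjusted p = 0.0537), though without NC replicate 2 at 0 h it passed as lower (-0.35, adjusted p = 0.0256).

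On the way to squalene FDFT1 had 55.8 and 53.1 CPM under KO, against 129.5 and 119.7 CPM under NC, a clear separation (log2 change -1.19, SE 0.07, adjusted p = 2.51e-19), and FDPS had 94.03 and 105 CPM under KO, against 195 and 198 CPM under NC, with KO at 0.507 of NC. IDI1 had 26.8 and 31.5 CPM under KO, against 30.6 and 36.1 CPM under NC. The libraries of IDI1 overlapped and it did not pass (log2 change -0.19, SE 0.12, adjusted p = 0.14).

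Among the sterol ring genes 5 were lower, 2 higher and 3 not called. CYP51A1 had 47.7 and 56.01 CPM under KO, against 244 and 241 CPM under NC and lay far below NC (log2 change -2.23, SE 0.07, adjusted p = 3.09e-29). EBP had 47.6 and 41.8 CPM under KO, against 103 and 102 CPM under NC, DHCR7 had 99.04 and 101 CPM under KO, against 207 and 201 CPM under NC, LSS had 70.7 and 67.4 CPM under KO, against 96.8 and 103 CPM under NC and MSMO1 had 28.7 and 28.8 CPM under KO, against 42.01 and 36.6 CPM under NC. None overlapped, at log2 changes of -1.20, -1.02, -0.53 and -0.45. TM7SF2, with 12.3 and 13.5 CPM under KO, against 3.32 and 4.04 CPM under NC, went the other way (log2 change 1.81, SE 0.24, adjusted p = 1.11e-08), as did HSD17B7, with 11.4 and 12.9 CPM under KO, against 5.38 and 6.15 CPM under NC (log2 change 1.08). SC5D changed least, with 57.01 and 59.2 CPM under KO, against 57.3 and 57.5 CPM under NC, and overlapped (log2 change 0.02, SE 0.10, adjusted p = 0.88). SQLE and NSDHL overlapped and did not pass either, at -0.06 and -0.05, and NSDHL had 48.995 and 49.6 CPM under KO, against 48.5 and 53.3 CPM under NC.

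Of the regulators STARD4 changed most of all members, with 3.43 and 1.99 CPM under KO, against 43.2 and 39.8 CPM under NC. Both KO libraries lay far below both NC libraries (log2 change -3.92, SE 0.19, adjusted p = 1.83e-21). SREBF2 had 69.2 and 67.8 CPM under KO, against 199 and 201 CPM under NC, INSIG1 had 11.02 and 9.24 CPM under KO, against 28.2 and 27.9 CPM under NC, SREBF1 had 101 and 112 CPM under KO, against 198 and 212 CPM under NC and SCAP had 93.2 and 98.8 CPM under KO, against 138 and 145 CPM under NC. All 4 lay below NC, at log2 changes of -1.55, -1.47, -0.95 and -0.56. INSIG2 had 14.8 and 15.6 CPM under KO, against 13.5 and 8.26 CPM under NC, higher under KO (log2 change 0.48, SE 0.17, adjusted p = 0.0108), though without NC replicate 2 at 0 h its change was 0.17 and did not pass (adjusted p = 0.436), nor did it without KO replicate 2 at 0 h (0.44, adjusted p = 0.0584).

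All 7 fatty acid genes passed. FADS1 had 158 and 154 CPM under KO, against 585 and 583 CPM under NC, the largest change (log2 change -1.91, SE 0.05, adjusted p = 5.04e-32), and SCD, the most abundant, had 528 and 535 CPM under KO, against 1509.5 and 1513 CPM under NC (log2 change -1.51). FASN had 237 and 231 CPM under KO, against 469 and 479.6 CPM under NC and ACLY had 210.5 and 217 CPM under KO, against 490.0 and 507 CPM under NC, about 0.494 and 0.429 of NC. FADS2 changed least, with 85.2 and 79.9 CPM under KO, against 122 and 137 CPM under NC (log2 change -0.65, SE 0.07, adjusted p = 2.32e-10), and ACACA had 85.01 and 81.1 CPM under KO, against 147 and 142 CPM under NC (-0.80). ELOVL6, the elongase of palmitate, was the exception, with 40.3 and 39.04 CPM under KO, against 12.1 and 13.8 CPM under NC (log2 change 1.61, SE 0.12, adjusted p = 1.81e-15).

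These directions depend on the scale. Set to the level of 77 cytosolic ribosomal protein genes, the median of all genes moved to 0.50 and that of the members to -0.35, and 16 members were lower and 7 higher at 0 h. On the deposited molecule scale, which carries the authors' own slope and intercept per library, the median of all genes was 0.86 and that of the members 0.00, with 10 lower and 13 higher. HMGCS1, CYP51A1, STARD4, FADS1, SCD, SREBF2, INSIG1, ACLY, EBP and FDFT1 were lower on all 3 scales. ACAT2 turned upwards on both alternatives but passed on the molecule scale only. On that scale LSS, MSMO1 and SCAP also turned upwards and passed, while MVD and FADS2 turned upwards without passing. IDI1, NSDHL, PMVK and SQLE, which had not passed with TMM scaling, turned upwards and passed on the molecule scale. NSDHL (0.40) and SQLE (0.38) did so with ribosomal protein scaling too. Over all genes, 49.7% were higher and 19.9% lower with ribosomal protein scaling, and 57.7% were higher and 13.7% lower on the molecule scale. Averaged over the times, 21 members were lower and 8 higher with ribosomal protein scaling, where 28.9% of all genes were lower and 54.9% higher, and 21 were lower and 9 higher on the molecule scale, where 28.0% were lower and 53.8% higher.

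Among the other lists at 0 h, 6 of 11 sterol-sensing genes were higher under the KO label and 3 lower, with ERLIN2 at -1.44 and RNF145, a ubiquitin ligase, at 1.10. Of the 13 other SREBP targets 2 were higher and 8 lower, with MID1IP1 at -2.51, ACSL3, an acyl-CoA synthetase, at -2.17 and TMEM97 at -1.48. Of the isoprenoid branch genes 4 were higher and 2 lower, of the LXR and efflux genes 3 higher and 5 lower, and of the fatty acid oxidation genes 5 higher and 5 lower. Over all genes 35.5% were higher and 31.6% lower, and the counts of the isoprenoid and oxidation lists are near those shares.

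The 2 comparisons set side by side differ for 17 members that passed in both with opposite signs: the 16 that were higher in steady-state KO and lower under the KO label at 0 h, and INSIG2, which was the reverse. On the molecule scale 5 of these 17 (ACAT2, LSS, MSMO1, MVD and SCAP) were at positive values at 0 h, as in the steady state. Of the 5, MVD did not pass in limma's test (0.15, adjusted p = 0.163). DHCR7, FASN, FDPS and MVK did not pass either. With ribosomal protein scaling ACAT2 was at 0.14 at 0 h and did not pass. LSS (-0.08), MSMO1 (-0.004), MVD (-0.23), MVK (-0.37) and SCAP (-0.12) stayed negative with that scaling but did not pass. HSD17B7 was higher in both comparisons. SCD and STARD4 were lower in both by CPM, but in the steady state both overlapped by TPM, and SCD did not pass with length-adjusted scaling. The sets were deposited in separate tables and share no library, and the difference between their changes was not tested. Over all genes 24.4% were called higher and 26.3% lower in the steady state, and 35.5% higher and 31.6% lower at 0 h. How many of all genes passed in both with opposite signs was not counted.

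Levels over labelled time were read next, as the study's question about transcript lifetime uses them. In the edgeR test of any difference among the 5 labelled times, 25 of 31 members passed under the KO label, where 55.9% of all genes did, and 23 of 31 under the NC label, where 54.7% did. The highest mean was 1.04 to 3.24 times the lowest under the KO label, with a median of 1.46, and 1.07 to 3.20 times under the NC label, with a median of 1.44. Under the KO label 20 members had their lowest mean at 6 h, and under the NC label 20 had theirs at 4 h. Those are also the times at which 15 early-response transcripts (FOS, JUN, EGR1 and others) stood highest, at a sum of 2045 and 2055 CPM at KO 6 h against 239.2 to 338.9 CPM at the other KO times, and 2277 and 2177 CPM at NC 4 h against 181 to 234 CPM at the other NC times. In edgeR's test against 0 h, 4958 of 17715 genes were lower and 3495 higher at KO 6 h. At NC 4 h 4318 were lower and 4802 higher. Whether the time labels are in order was not tested.

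Several kinds of course can be read without a test between them. SQLE under the KO label had 33.1 and 37.3 CPM at 0 h, 23.9 and 22.99 at 2 h, 47.5 and 45.2 at 4 h, 42.8 and 48.1 at 6 h and 15.8 and 13.5 at 8 h. Under the NC label it had 34.9 and 38.6 CPM at 0 h, 66.99 and 68.6 at 2 h, 63.8 and 69.2 at 4 h, 50.2 and 46.2 at 6 h and 29.5 and 26.03 at 8 h. It was highest at 4 and 6 h under KO and at 2 and 4 h under NC, and lowest at 8 h under both labels (F test over times, adjusted p = 1.26e-17 for KO and 1.81e-15 for NC). HSD17B7 followed the same shape, with 11.4 and 12.9 CPM at 0 h, 7.32 and 7.78 at 2 h, 18.6 and 14.8 at 4 h, 13.8 and 15.9 at 6 h and 6.17 and 4.14 at 8 h under KO and 5.38 and 6.15 CPM at 0 h, 13.7 and 12.9 at 2 h, 10.9 and 13.4 at 4 h, 7.52 and 10.2 at 6 h and 5.22 and 5.38 at 8 h under NC.

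INSIG1 rose in relative level in mid-series, with 11.02 and 9.24 CPM at 0 h, 10.3 and 13.1 at 2 h, 16.95 and 16.6 at 4 h, 19.9 and 21.1 at 6 h and 8.15 and 10.2 at 8 h under KO and 28.2 and 27.9 CPM at 0 h, 41.5 and 44.8 at 2 h, 75.5 and 75.5 at 4 h, 35.2 and 27.4 at 6 h and 23.5 and 23.6 at 8 h under NC. Its highest means were at KO 6 h and NC 4 h and its lowest at 8 h under both labels (adjusted p = 8.17e-10 for KO and 1.02e-15 for NC). INSIG2 had 14.8 and 15.6 CPM at 0 h, 15.8 and 15.4 at 2 h, 23.1 and 24.1 at 4 h, 24.5 and 22.6 at 6 h and 21.9 and 18.9 at 8 h under KO and 13.5 and 8.26 CPM at 0 h, 21.8 and 21.8 at 2 h, 19.9 and 16.5 at 4 h, 16.2 and 15.7 at 6 h and 12.2 and 14.8 at 8 h under NC. Its lowest means were at 0 h under both labels. MVK was likewise lowest at 0 h and highest at 4 h under both labels, and passed under NC (adjusted p = 0.000204) but not under KO (adjusted p = 0.158).

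FDPS had 94.03 and 105 CPM at 0 h, 104 and 101 at 2 h, 83.1 and 87.5 at 4 h, 66.5 and 66.7 at 6 h and 103 and 104 at 8 h under KO and 195 and 198 CPM at 0 h, 159 and 175 at 2 h, 141 and 137 at 4 h, 192 and 188 at 6 h and 218 and 203 at 8 h under NC. It was lowest at KO 6 h and NC 4 h, and highest at 8 h under both. DHCR7 had 99.04 and 101 CPM at 0 h, 110.3 and 114 at 2 h, 84.8 and 89.2 at 4 h, 68.3 and 72.98 at 6 h and 109 and 124 at 8 h under KO and 207 and 201 CPM at 0 h, 165 and 169 at 2 h, 141 and 127 at 4 h, 188 and 180.1 at 6 h and 218 and 208 at 8 h under NC, the same shape. FADS1, FADS2, ACAT2, PMVK, MVD and SCD were also lowest at KO 6 h and NC 4 h and highest at 8 h under both labels.

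HMGCS1 varied little over time on the TMM scale, with 27.002 and 23.5 CPM at 0 h, 22.7 and 26.8 at 2 h, 27.4 and 27.8 at 4 h, 28.3 and 28.6 at 6 h and 25.7 and 24.6 at 8 h under KO and 193 and 198 CPM at 0 h, 204 and 187 at 2 h, 202 and 214 at 4 h, 189 and 200.3 at 6 h and 211 and 204 at 8 h under NC. It did not pass under either label (adjusted p = 0.0938 for KO and 0.418 for NC). Its highest mean was 1.15 times its lowest under KO and 1.07 times under NC on that scale, 2.08 and 1.70 times with ribosomal protein scaling, and 3.35 and 3.01 times on the molecule scale. STARD4, IDI1 and TM7SF2 did not pass under either label, and the KO and NC ranges of HMGCS1 and STARD4 were far apart at every labelled time.

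**Figure D4:**
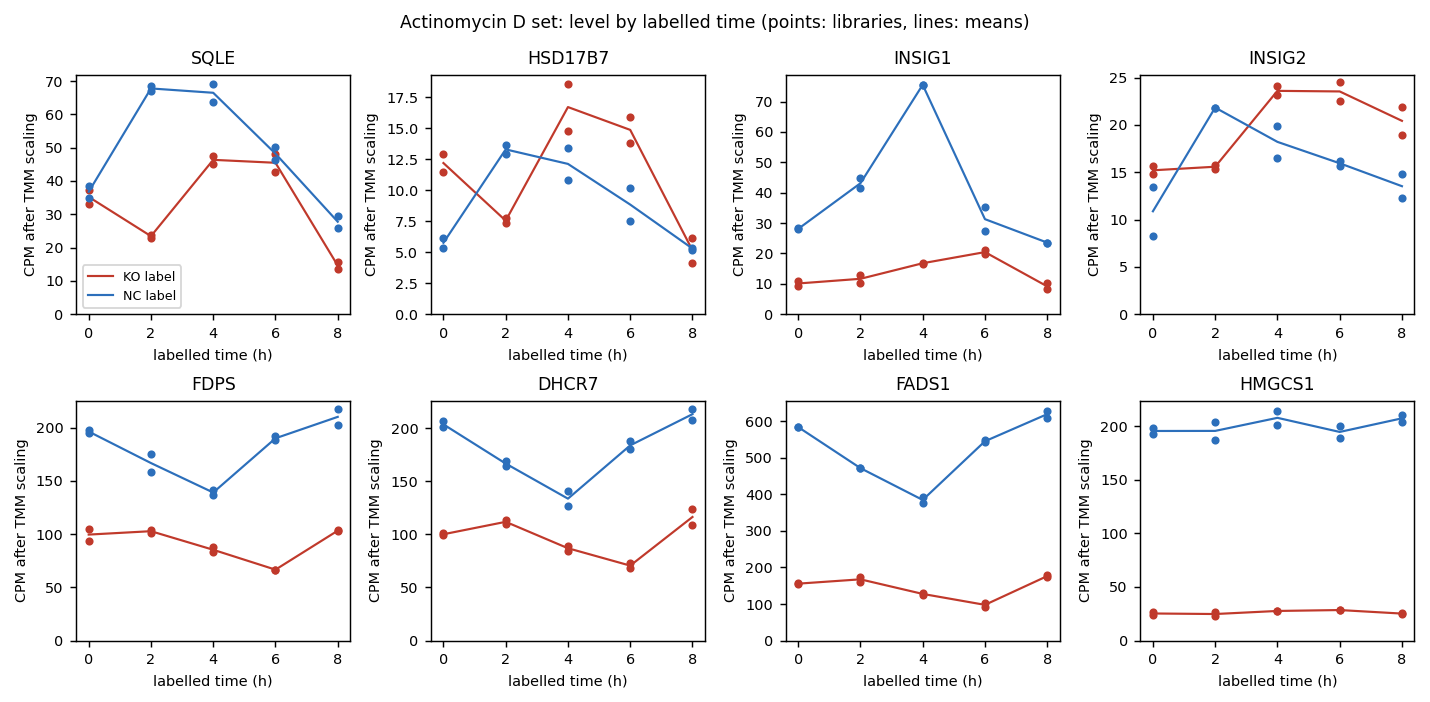
Level in CPM after TMM scaling against labelled time in hours for 8 members (red, KO label; blue, NC label; points are libraries and lines are means of 2). SQLE, HSD17B7 and INSIG1 are high in mid-series and low at 8 h, FDPS, DHCR7 and FADS1 dip at KO 6 h and NC 4 h, and HMGCS1 varies little on this scale.

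The lows at KO 6 h and NC 4 h belong to the TMM scale. Set to ribosomal protein genes, 25 members had their highest mean at KO 6 h and 22 at NC 4 h, and 23 under KO and 24 under NC their lowest at 8 h. With that scaling the median log2 change of all genes from 0 h was 0.53 at KO 6 h and 0.62 at NC 4 h. At 8 h it was -0.21 under KO and -0.13 under NC. On the molecule scale all 31 had their lowest mean at 8 h under both labels, with the highest at 0 h for 25 members under KO and at 2 or 4 h for 15 and 12 under NC. There the median log2 change of all genes from 0 h to 8 h was -1.72 under KO and -1.14 under NC. On both scales these courses of the members thus go with a shift in the median of all genes. On all 3 scales SQLE, HSD17B7 and INSIG1 were lowest at 8 h under both labels, and SQLE was higher at its peak than at 8 h by 3.17, 5.70 and 8.98 times under KO and by 2.44, 4.06 and 7.19 times under NC.

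**Figure D5:**
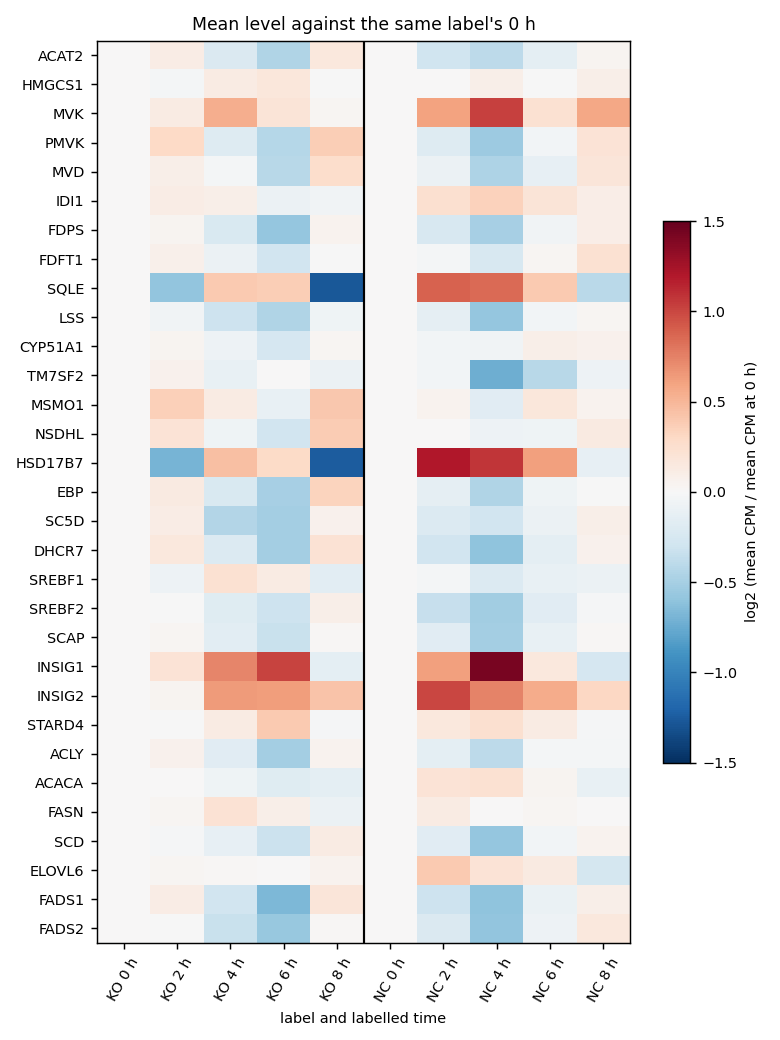
Mean level of each member (rows) at each labelled time against the same label's 0 h, as log2 of the ratio of mean CPM, with KO label columns left of NC label columns. In the columns KO 6 h and NC 4 h, 20 members each have their lowest mean and are blue, but they are not the same 20. IDI1 and ACACA are lowest at KO 6 h and highest at NC 4 h. SQLE, HSD17B7, INSIG1, INSIG2 and MVK are red in mid-series under both labels.

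A straight line over labelled time gave no call. No member passed for the slope under KO, under NC or for the slope difference KO minus NC, where 0.0% of all genes did in each. At an unadjusted p under 0.05 there were 635, 403 and 529 genes of 17715, and 0 of the 31 members in each test. Slopes of the members ran from -0.05 to 0.07 log2 per hour under KO and from -0.07 to 0.04 under NC, and their difference from -0.04 to 0.10. On the molecule scale 25 members fell under KO in limma's test, where 50.9% of all genes did, and 25 under NC, where 42.9% of all genes did. On that scale 0 members rose under KO or under NC, where 0.096% and 0.0226% of all genes did, and 0 differed in slope between the labels. A straight line takes the labelled times as given, and the courses above bend.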

How the data were processed

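RNA-seq tables of 26 libraries labelled PANC-1 were used. The submitters' processing notes list Bowtie2, STAR, RSEM, deepTools and hg19, with no version or role; neither the annotation nor strand use in counting is given in the sources used here. Per the labels' protocols, RNA was taken with TRIzol. In the steady-state tables the authors deposited expected counts and TPM values, per the file headers; 10.2% of expected counts were not whole (tolerance 0.001) and were rounded. In the actinomycin D tables the authors deposited read counts, RPKM values and a molecule signal per gene, whose log2 value is a straight line of log2 RPKM in each library.

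Members and lists were chosen with earlier results of these data known. Tests were edgeR's robust quasi-likelihood F tests (version 4.0.16, R 4.3.3) after filterByExpr and TMM, with Benjamini-Hochberg adjustment over all genes tested and a threshold of 0.05; dividing the size of a log2 change by the root of its F gave its SE. The steady-state fit used 6 libraries and the actinomycin D fits all 20, with one mean per label and time, or with time in hours, label and their interaction. The calls averaged over times were added after the data were seen. Alternatives were DESeq2 1.42.0 size factors and Wald test, no filter, a replicate block, length-adjusted offsets (a spline with 5 degrees of freedom), ribosomal protein scaling (77 genes), limma 3.58.1 on the molecule signal (pseudocount 3747, percentile 5) and leaving out libraries. The tests were checked on simulated counts. All 31 members are reported, with every library's value for those with the largest and smallest change of each role group and those whose direction differed between the sets; of other lists at most 3 called genes of at least 10 CPM are named. Members were matched to RefSeq promoter windows by symbol. Libraries of a group differed by a chi-square per degree of freedom of 3.81 to 42.8 in the steady state, the highest for KO replicates 1 and 2. In the actinomycin D set it was 3.90 to 5.30. Each library was kept as a replicate, but spread beyond counting noise does not tell whether libraries are separate cultures. The depth behind the members, 37 counts or more per library, limits the scarcest of them. Some items are not reported here.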

Additional observations from a re-analysis of the deposited data

Results flagged for a closer look

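For 18 members every KO library lay on one side of every NC library in the steady state and on the other side at labelled 0 h of the actinomycin D set, on the TMM scale. The difference between the changes was not tested. Over all genes, KO lay above NC for 30.4% and below NC for 29.6% in the steady state. At labelled 0 h these shares were 42.9% and 39.1%. The share of all genes on opposite sides in the 2 sets was not counted, so the 18 cannot be called particular to the members. On the deposited molecule scale ACAT2, LSS, MSMO1, MVD, PMVK and SCAP were at positive values at 0 h, the direction they had in the steady state. Of these MVD did not pass, and neither did DHCR7, FASN, FDPS and MVK. With ribosomal protein scaling ACAT2 was at 0.14 at 0 h and did not pass, and neither did LSS, MSMO1, MVD, MVK and SCAP. On the TMM scale the log2 changes at 0 h, KO label minus NC label, were -2.95 for HMGCS1 and -0.82 for MVK. They were -0.68 for MVD, -0.31 for ACAT2 and -0.25 for PMVK, which did not pass the test there. They were -0.98 for FDPS, -1.19 for FDFT1, -2.23 for CYP51A1, -1.20 for EBP, -1.02 for DHCR7, -0.53 for LSS and -0.45 for MSMO1. They were -1.55 for SREBF2, -1.47 for INSIG1, -0.56 for SCAP, -1.02 for FASN and -1.91 for FADS1, all of which were higher in steady-state KO cells. INSIG2, at 0.48, was the one of the 18 that was lower in steady-state KO cells. KO and NC libraries of the actinomycin D set also differ in CDKN2A (0 against 125 to 247 CPM) and in KRT19 (372 to 415 against at most 0.672 CPM), and the part of those differences in the members' values was not tested.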

How the results depend on the processing

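Steady-state counts of 20 higher and 3 lower members held with DESeq2 size factors, DESeq2's Wald test, no filter and the replicate block. In the steady state same-numbered libraries did not deviate together (r = -0.11 to 0.06). The counts were 22 and 2 with length-adjusted offsets, where SCD (0.14, not past the threshold) and ACACA (0.27) reversed. With those offsets 5244 of 17240 genes were higher and 3778 lower, against 4198 and 4528 in the main fit. Leaving out 1 library gave 18 to 21 higher and 3 to 5 lower, the 5 without KO replicate 1. At 0 h, 4 higher and 22 lower became 4 and 23 with DESeq2 size factors, DESeq2's Wald test, no filter and the replicate block (r = -0.04 to 0.03), 3 to 4 and 21 to 23 with 1 library left out, 7 and 16 under ribosomal protein scaling, 13 and 10 on the molecule scale, and 4 and 25 averaged over times. The average gave 8 and 21 under ribosomal protein scaling, 9 and 21 on the molecule scale, 4 and 25 with the replicate block, and 4 and 24 to 25 with 1 library left out. Under ribosomal protein scaling ACAT2 (0.14), NSDHL (0.40) and SQLE (0.38) reversed at 0 h, and ACAT2 (0.16), IDI1 (0.030), MSMO1 (0.075), PMVK (0.27) and SC5D (0.35) in the average. Of these values ACAT2 at 0 h and IDI1 and MSMO1 in the average did not pass. On the molecule scale ACAT2 (0.58), FADS2 (0.20), IDI1 (0.64), LSS (0.31), MSMO1 (0.39), MVD (0.15), NSDHL (0.83), PMVK (0.64), SCAP (0.29) and SQLE (0.80) reversed at 0 h, and ACAT2 (0.21), IDI1 (0.038), MSMO1 (0.10), PMVK (0.32) and SC5D (0.38) in the average. Of these values FADS2 and MVD at 0 h and IDI1 in the average did not pass. The causes were not tested. Members differing among times numbered 25 under KO and 23 under NC, 25 and 23 with the replicate block, and 24 to 25 and 22 to 24 with 1 library left out. Slope counts were 0 under each alternative for counts, replicate block and left-out libraries (0 to 0) included, and 25 lower under KO and 25 under NC on the molecule scale, where 50.9% and 42.9% of all genes were lower. Split by its free base, the sterol regulatory element was in 1 member with C and 0 with G. With 2 libraries a group at 0 h, leaving 1 out assumes that the lone library varies like the other groups.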
